A study of Mus musculus with 10 samples.

Results

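The mouse genes named Lrrc with a number code for proteins built on leucine-rich repeats, short motifs that stack into a curved surface on which other proteins bind. The name is given for this fold, and the proteins do unrelated work. Several belong to ion channels or to the axoneme, the microtubule core that drives the sperm tail. Genes were taken by name: every array feature annotated with exactly 1 gene symbol that reads Lrrc followed by a digit was a candidate, and where a gene had several, the brightest on average over the 10 arrays stood for it. This gave 65 genes, each with 1 feature, of 19661 genes measured. The rule used no difference between genotypes.

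GeneChip Mouse Gene 1.0 ST arrays had been hybridised with RNA of the whole testis, 1 array per mouse, from 5 wild-type animals (WT) and 5 Crem-/- animals (KO), in which both copies of Crem are disrupted. Crem codes for the cAMP responsive element modulator, a transcription factor that acts in haploid germ cells. All mice were untreated males of 8 weeks on the mixed 129Pas and C57Bl/J background and were killed when the lights came on. The KO carries the disruption in every cell and not only in germ cells. The labels give 4 batches without saying what a batch is: batch 2 held 1 KO and 3 WT arrays and batch 4 held 3 KO arrays and 1 WT array, while KO replicate 2 was alone in batch 1 and WT replicate 4 alone in batch 3. Levels below are log2 values after normalisation of the arrays, a change is KO minus WT on that scale, and levels of different features are not compared with each other. The exception is a percentile, which places the mean level of a feature among all features of the same genotype and flags low signal.

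In sperm, LRRC52 accompanies the potassium channel SLO3, whose pore is coded by Kcnu1. This channel sets the membrane voltage of sperm. LRRC26, LRRC55 and LRRC38 are related auxiliary (gamma) subunits of the large-conductance potassium channel SLO1, coded by Kcnma1. The 5 LRRC8 proteins form the volume-regulated anion channel, in which LRRC8A is the obligatory subunit. LRRC6 helps to assemble dynein arms before they reach the axoneme, LRRC23 is part of a radial spoke, and LRRC49 belongs to the complex that adds glutamate chains to tubulin.

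Crem itself was at 10.89, 11.04, 10.96, 10.93 and 10.94 in WT replicates 1 to 5 and at 9.29, 9.29, 9.41, 9.01 and 9.18 in the KO replicates, a change of −1.71 ± 0.07 (SE). Among 4 markers of spermatids, the haploid cells that become sperm, Prm1, Tnp1 and Spaca1 fell and Acrv1 was not called, and the summed level of the 4 was 49.9 to 50.5 in WT and 31.6 to 39.2 in KO. Of 4 spermatocyte markers 3 rose, with sums of 41.1 to 41.6 and 42.1 to 42.6. All 4 macrophage markers rose (28.8 to 29.4 and 30.8 to 33.7), as did 3 of 4 Leydig markers (39.1 to 40.1 and 40.4 to 43.6). Of the Sertoli markers 1 of 4 rose (35.2 to 35.8 and 35.7 to 36.5), and of the epididymis markers limma called 0 of 3, also at an unadjusted p under 0.05 (16.8 to 17.5 and 16.7 to 17.3). Of 4 spermatogonia markers 2 rose and 1 fell, and 1 of 3 peritubular myoid and 1 of 3 endothelial markers rose. For comparison, 31.1% of all genes were called higher and 13.2% lower. In whole tissue, fewer cells of a type and less RNA per cell cannot be told apart, and the part of these shifts in the results below was not tested.

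Between the genotypes 29 of the 65 genes were called changed at a limma adjusted p under 0.05. Down-regulated were 17 genes (26.2%), where 13.2% of all genes were called lower. Up-regulated were 12 genes (18.5%), where 31.1% of all genes were called higher. The falls were the larger changes: 7 of the genes were lower by at least 1 log2 unit (4.36% of all genes) and 0 were higher by as much (1.37% of all genes), the highest change being 0.69. The arrays of the genotypes did not overlap for 24 of the 65, against 32.7% of all genes. The median change over the 65 genes was −0.0003, beside 0.07 over all genes. The share of calls that were rises depended on the scaling, since centring the arrays on the housekeeping genes, B2m included, gave 20 genes lower and 7 higher, and centring them on their medians gave 17 lower and 17 higher. Without B2m, which itself rose by 0.81 in KO, the housekeeping genes gave 17 lower and 8 higher.

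**Figure D1:**
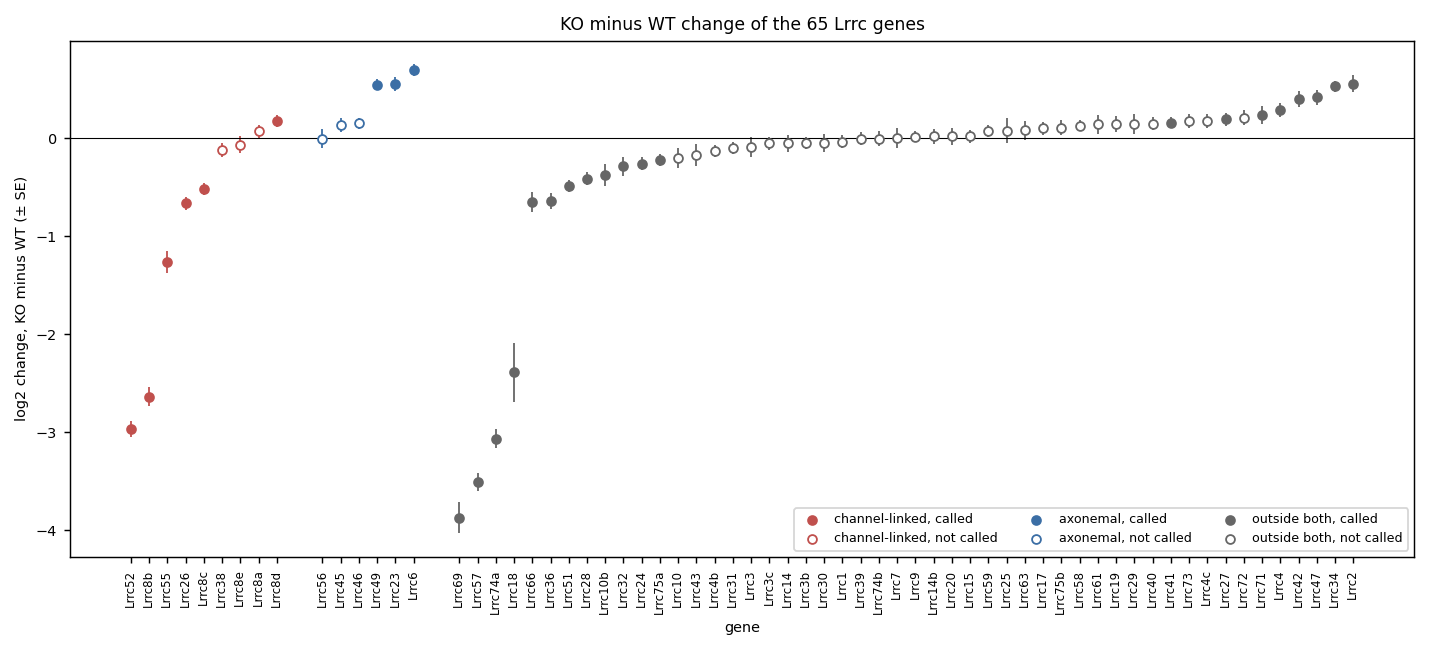
KO minus WT log2 change (± SE, 5 arrays per genotype) of each of the 65 Lrrc genes, with channel-linked genes, axonemal genes and all others set apart. Filled points were called at a limma adjusted p under 0.05; 7 points lie at or below −1 and no point reaches 1.

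Channel-linked genes were mostly down-regulated: of 9, 5 fell (Lrrc52, Lrrc8b, Lrrc55, Lrrc26 and Lrrc8c), 1 rose (Lrrc8d) and 3 were not called. Over all genes 13.2% were called lower and 31.1% higher. The median change of the 9 genes was −0.52. Of the 4 gamma subunits 3 fell, with a median of −0.97, and of the 5 LRRC8 subunits 2 fell and 1 rose, with a median of −0.07.

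Lrrc52 was at 9.81, 9.81, 9.61, 9.51 and 9.65 in WT replicates 1 to 5. In the KO it was at 6.77, 6.67, 6.91, 6.60 and 6.57. All KO arrays lay more than 2 log2 units below all WT arrays, and neither group held an array apart from the rest. The mean fell from 9.68 ± 0.13 to 6.71 ± 0.14 (SD, n = 5 each), a change of −2.97 ± 0.08 (SE; limma adjusted p = 5.88e-12) or 7.83-fold. It was −2.83 within batch 2 and −3.002 within batch 4. The signal left in the single KO arrays was between 11.6% and 14.7% of the WT mean.

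The pore gene of the same channel fell with it. Kcnu1 was at 10.84, 10.89, 10.81, 10.67 and 10.57 in WT and at 7.00, 7.18, 7.24, 7.12 and 6.71 in KO, a change of −3.70 ± 0.10 (SE; limma adjusted p = 4.32e-12). Kcnma1, the pore gene of SLO1, moved the other way, from 6.77, 6.89, 7.02, 6.79 and 6.80 in WT to 7.38, 7.18, 7.26, 7.31 and 7.52 in KO. Its change was 0.475 ± 0.07 (SE; limma adjusted p = 1.88e-04). None of Kcnmb1, Kcnmb2, Kcnmb3 and Kcnmb4, which code for the beta subunits of SLO1, was called, with changes between −0.18 and 0.01. Of the 6 pore and beta subunit genes 1 thus fell and 1 rose.

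Lrrc55 and Lrrc26 fell by less than Lrrc52. Lrrc55 was at 7.46, 6.91, 7.18, 7.30 and 7.01 in WT and at 5.97, 6.10, 6.03, 5.82 and 5.63 in KO (change −1.26 ± 0.11 SE, limma adjusted p = 7.41e-07). Lrrc26 was at 7.06, 6.83, 7.01, 6.91 and 6.87 in WT and at 6.20, 6.40, 6.20, 6.24 and 6.31 in KO (change −0.67 ± 0.07 SE, limma adjusted p = 2.17e-06). The groups were apart in both genes. Lrrc38 was at 6.01, 5.75, 6.03, 5.75 and 5.89 in WT and at 5.75, 5.73, 5.74, 5.86 and 5.73 in KO, so that the groups overlapped. Its change of −0.12 was not called (limma adjusted p = 0.188), and the 95% interval of the difference ran from −0.27 to 0.03. In KO, the means of Lrrc55, Lrrc26 and Lrrc38 lay at percentiles 24.5, 31.4 and 22.0 of all features. The share of background in such low signal was not tested.

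The LRRC8 subunit genes differed in direction and size. Lrrc8b was at 12.36, 12.26, 12.24, 12.47 and 12.34 in WT and at 9.65, 10.04, 9.66, 9.69 and 9.42 in KO. This was a fall of 6.24-fold (change −2.64 ± 0.10 SE, limma adjusted p = 5.26e-11), with KO replicate 2 the highest of the KO arrays. Lrrc8c fell from 9.06, 8.90, 8.89, 9.12 and 8.96 to 8.44, 8.45, 8.48, 8.38 and 8.57 (change −0.52 ± 0.06 SE, limma adjusted p = 1.75e-05), again without overlap.

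Lrrc8a, the obligatory subunit, was at 8.06, 7.97, 7.88, 8.21 and 8.12 in WT and at 8.11, 8.10, 8.15, 8.13 and 8.09 in KO. Its change of 0.07 was not called (limma adjusted p = 0.458; 95% interval −0.07 to 0.21), and all KO values lay inside the WT range. Lrrc8e was at 6.32, 6.34, 6.24, 6.17 and 6.34 in WT and at 6.05, 6.53, 6.18, 6.28 and 6.04 in KO, with a change of −0.07 that was not called (limma adjusted p = 0.599; 95% interval −0.26 to 0.12). Lrrc8d was at 7.73, 7.86, 7.82, 7.60 and 7.78 in WT and at 7.90, 7.88, 7.92, 8.04 and 7.91 in KO. Its rise of 0.17 ± 0.06 (SE; limma adjusted p = 0.0427) was lost in 14 of 23 other settings. Among them were the fits with batch as a fixed block (limma adjusted p = 0.161), without WT replicate 1, 4 or 5 (adjusted p = 0.0837, 0.104 and 0.0626) and without KO replicate 1, 3, 4 or 5 (0.0584, 0.0684, 0.101 and 0.0673). In the mouse RefSeq annotation (GRCm38.p6) Lrrc8b, Lrrc8c and Lrrc8d lie close together on chromosome 5, so that these neighbours changed by −2.64, −0.52 and 0.17.

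**Figure D2:**
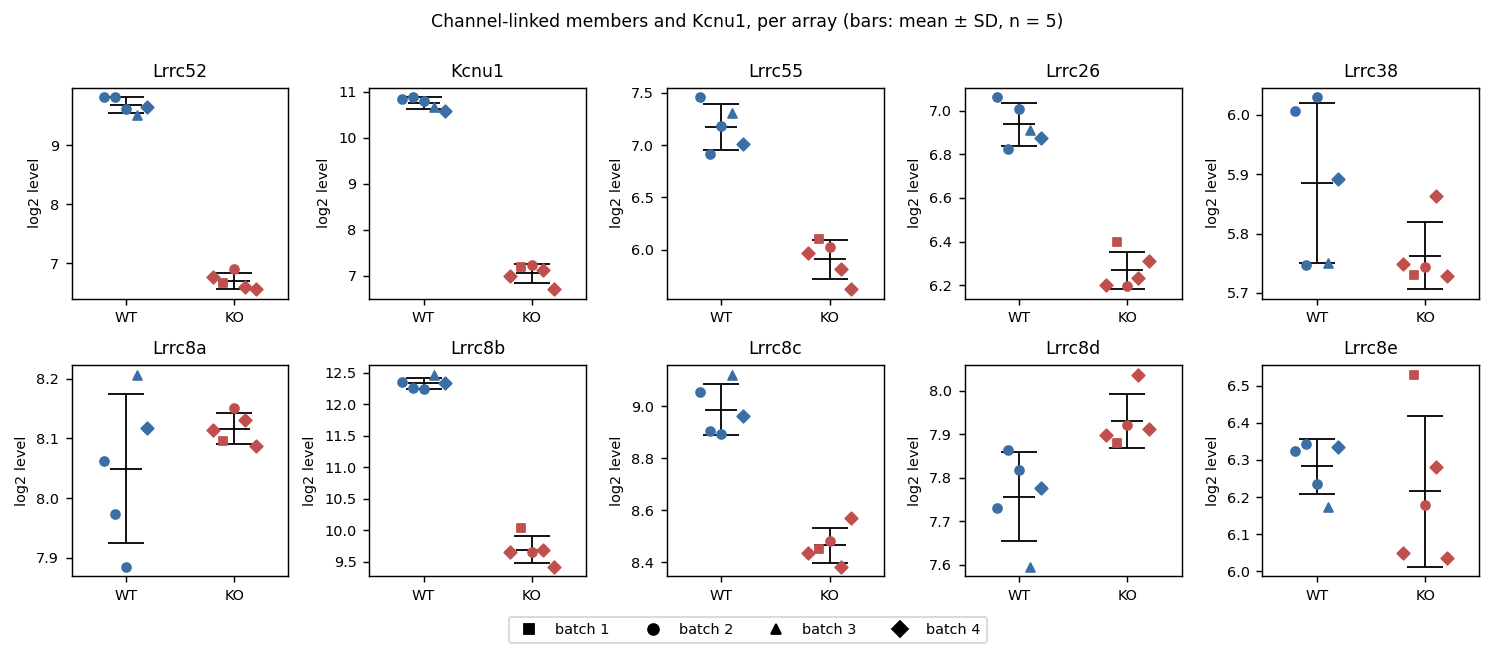
Log2 level of the 9 channel-linked genes and of Kcnu1 in each array (points, shaped by batch) with the mean ± SD of 5 arrays per genotype. Each panel has its own axis; Lrrc52, Kcnu1, Lrrc55, Lrrc26, Lrrc8b and Lrrc8c are lower in every KO array than in any WT array, while Lrrc38, Lrrc8a and Lrrc8e overlap.

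Of the 6 axonemal genes, 3 rose (Lrrc6, Lrrc23 and Lrrc49), 0 fell and 3 were not called, and their median change was 0.35. Over all genes 31.1% were called higher and 13.2% lower, and the called rises had a median of 0.34. Whether 3 of 6 differs from that share was not tested. At an unadjusted p under 0.05 limma put 4 of the 6 higher and 0 lower. Their rises were small beside the falls above, at 1.46 to 1.62-fold. The same 3 remained higher in all 23 other settings, centring on the housekeeping genes included.

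Lrrc6 was at 10.93, 10.94, 10.87, 11.01 and 10.83 in WT and at 11.59, 11.76, 11.53, 11.62 and 11.54 in KO (change 0.69 ± 0.06 SE, limma adjusted p = 7.84e-07). Lrrc23 was at 10.61, 10.59, 10.52, 10.61 and 10.52 in WT and at 11.23, 11.31, 10.99, 11.03 and 11.05 in KO (change 0.55 ± 0.07 SE, limma adjusted p = 2.68e-05). Lrrc49 was at 10.75, 10.83, 10.63, 10.82 and 10.76 in WT and at 11.25, 11.34, 11.25, 11.38 and 11.30 in KO (change 0.55 ± 0.06 SE, limma adjusted p = 5.36e-06). In these 3 genes every KO array lay above every WT array. The changes of Lrrc6, Lrrc23 and Lrrc49 were 0.62, 0.42 and 0.51 within batch 2 and 0.75, 0.58 and 0.55 within batch 4.

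Lrrc46, needed for the sperm tail in mice, was at 12.99, 13.03, 12.92, 13.08 and 12.96 in WT and at 13.23, 13.03, 13.13, 13.20 and 13.15 in KO. The groups overlapped through KO replicate 2, and the change of 0.15 (95% interval 0.02 to 0.28) was not called (limma adjusted p = 0.0593). Lrrc45 codes for a protein of the centrosome and was counted here with the axonemal genes. Its levels were 7.41, 7.34, 7.45, 7.54 and 7.37 in WT and 7.67, 7.32, 7.64, 7.53 and 7.63 in KO. Its change of 0.14 (95% interval −0.02 to 0.29) was not called (limma adjusted p = 0.166). Both calls turned on the setting. Without KO replicate 2 both were called higher, at limma adjusted p = 0.0225 and 0.0215, which made 5 of 6. With batch as a fixed block Lrrc45 was called (change 0.24, adjusted p = 0.0291). Lrrc46 was called in 7 of the 23 other settings, at adjusted p = 0.0139 with a further quantile normalisation, 0.0454 with median centring, 0.0371 with array weights, 0.0246 with trend and robust variances, 0.0464 without WT replicate 4 and 0.0307 without KO replicates 2 and 3 besides the fit without KO replicate 2. Lrrc56, linked to dynein arms in humans, was at 9.35, 9.48, 9.29, 9.57 and 9.32 in WT and at 9.54, 9.17, 9.26, 9.65 and 9.37 in KO. The means did not differ beyond the spread (change −0.005, limma adjusted p = 0.975, 95% interval −0.21 to 0.20).

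**Figure D3:**
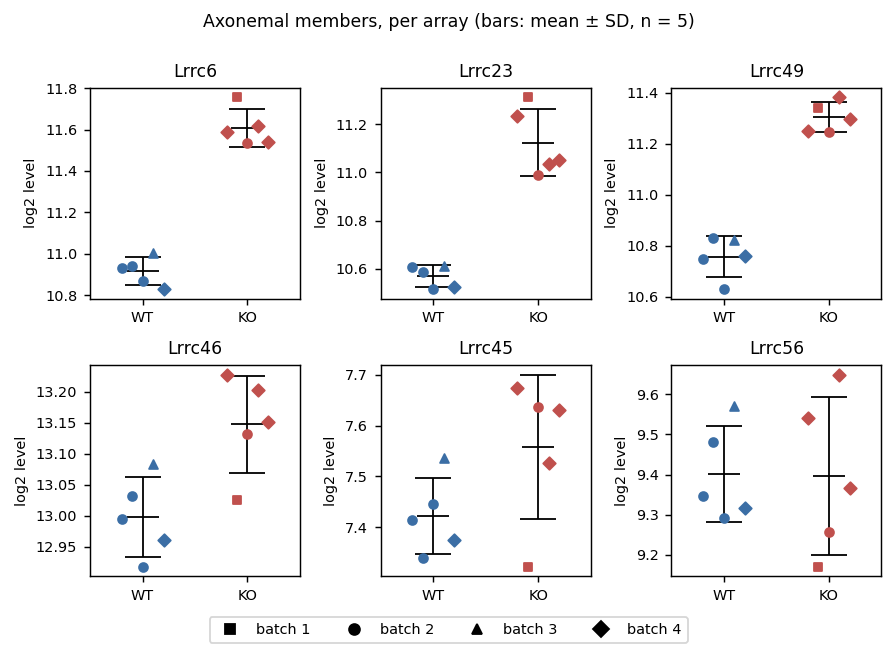
Log2 level of the 6 axonemal Lrrc genes in each array (points, shaped by batch) with the mean ± SD of 5 arrays per genotype, each panel with its own axis. Lrrc6, Lrrc23 and Lrrc49 are higher in every KO array than in any WT array, whereas Lrrc46, Lrrc45 and Lrrc56 overlap.

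The partners of these proteins in the axoneme moved by similar amounts. The nexin-dynein regulatory complex, which links neighbouring microtubule doublets, was higher for 9 of 9 genes, with changes of 0.25 to 0.70 and a median of 0.38. Of 9 measured radial spoke genes 6 rose and 0 fell (median 0.30, range 0.06 to 0.47). Of 12 dynein arm assembly genes 9 rose and 0 fell (median 0.31, range 0.10 to 0.47), and of 4 measured genes of the tubulin polyglutamylase complex 2 rose and 0 fell (median 0.21). At an unadjusted p under 0.05 limma put 0 genes of the former 3 lists and 1 polyglutamylase gene lower. With batch as a fixed block, limma called 7 of 9 nexin-dynein genes higher (Tcte1 and Fbxl13 lost), 4 of 9 radial spoke genes (Rsph1 and Dnajb13 lost), 7 of 12 dynein assembly genes (Dnaaf2 and Dnaaf6 lost) and 2 of 4 polyglutamylase genes, and 2 instead of 3 of the spermatocyte markers. In the fit without batch, as given above, 31.1% of all genes were called higher. The share of all genes with batch as a block is not given here. Drc3, Dnaaf1 and Ppp1r42, earlier named as Lrrc genes and so outside the rule, changed by 0.24, 0.31 and −0.04, of which the rises of Drc3 (limma adjusted p = 0.0264) and Dnaaf1 (limma adjusted p = 0.0015) were called. The spermatocyte markers, given above, moved in the same direction with a median change of 0.25.

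**Figure D4:**
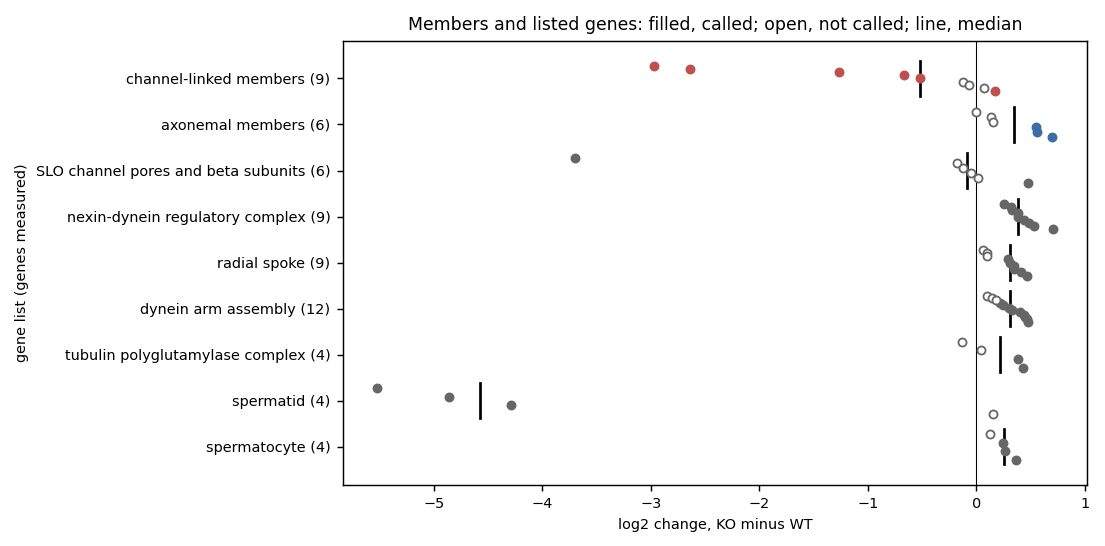
KO minus WT log2 change of the channel-linked and axonemal Lrrc genes beside their partner genes and the spermatid and spermatocyte markers, with each gene as a point (filled, called at a limma adjusted p under 0.05) and the median of each list as a line. The other marker lists are not drawn. The median is −0.52 for channel-linked and 0.35 for axonemal Lrrc genes, 0.38 for the nexin-dynein regulatory complex, −4.58 for 4 spermatid and 0.25 for 4 spermatocyte markers.

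Outside these lists stood 50 genes, of which 12 fell (24%) and 8 rose (16%), with a median change of 0.006. Of all genes, 13.2% were called lower and 31.1% higher. The falls among the 50 included the deepest of all 65 genes. Lrrc69 was at 8.84, 9.34, 8.75, 8.90 and 9.05 in WT and at 5.06, 5.74, 4.81, 5.04 and 4.85 in KO, a 14.7-fold fall (change −3.87 ± 0.16 SE, limma adjusted p = 1.96e-10) in which KO replicate 2 kept the most signal. The KO mean of Lrrc69 lay at percentile 13.1 of all features, and how much of it is background was not tested. Lrrc57 was at 11.19, 10.97, 11.18, 11.07 and 10.96 in WT and at 7.62, 7.63, 7.81, 7.53 and 7.26 in KO, a fall of 11.4-fold (change −3.51 ± 0.09 SE, limma adjusted p = 4.32e-12). Neither protein has a settled role, and in both genes the groups were far apart.

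Lrrc57 shares part of its span with Haus2, which codes for a subunit of the augmin complex of the mitotic spindle. The separate feature of Haus2 changed by −0.55 ± 0.13 (SE; limma adjusted p = 0.00345). Haus2 and the other overlapping or neighbouring genes were looked up after the values of the Lrrc genes were seen.

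Lrrc74a was at 10.87, 10.89, 10.87, 10.70 and 10.71 in WT and at 7.87, 8.00, 7.82, 7.54 and 7.48 in KO (change −3.07 ± 0.10 SE, limma adjusted p = 1.75e-11). Lrrc18, described as a testis protein, was at 11.53, 11.48, 11.27, 11.77 and 11.42 in WT and at 9.26, 10.002, 9.45, 7.77 and 9.04 in KO (change −2.39 ± 0.30 SE, limma adjusted p = 2.60e-05). The KO arrays of Lrrc18 were the least alike of the 7 genes that fell most, with an SD of 0.83 against 0.18 in WT. KO replicate 4 held 7.55% of the WT mean and KO replicate 2 held 35.6%. The change of Lrrc18 was −1.98 within batch 2 and −2.73 within batch 4. Its span overlaps that of Wdfy4, whose own feature changed by −0.36 and was not called (limma adjusted p = 0.247).

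Across the 7 genes that fell by at least 1, the KO arrays were not alike. In 5 of them KO replicate 2 held the most signal and in 2 KO replicate 3 did, while KO replicate 5 held the least in 5. Taken as the median over the 7, KO replicates 1 to 5 held 13.4%, 14.3%, 14.7%, 10.4% and 11.6% of the WT signal. KO replicates 2 and 3 are also the only KO arrays outside batch 4, so that array and batch cannot be told apart here. For Lrrc69 and Lrrc55, low in KO at percentiles 13.1 and 24.5, the signal left may include background, which was not tested.

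**Figure D5:**
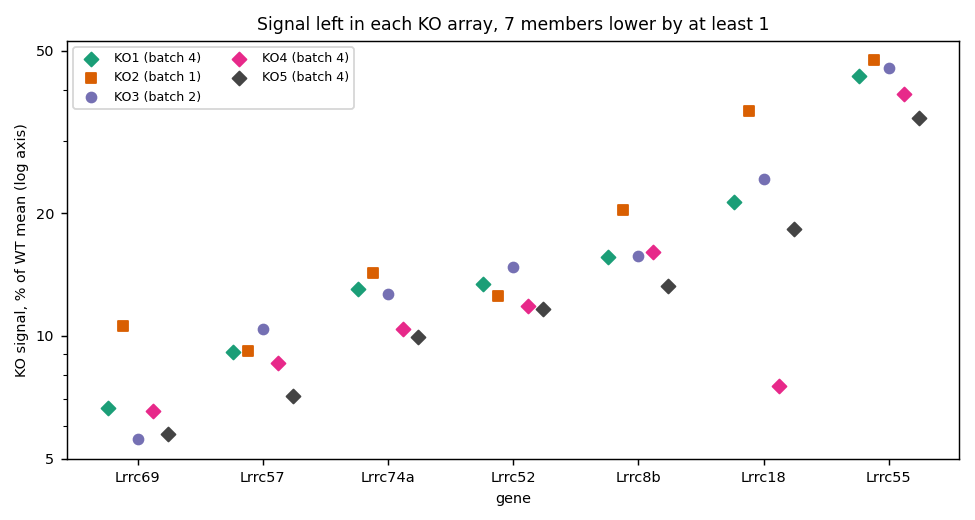
Signal of each KO array relative to the WT mean (in percent, log axis) for the 7 Lrrc genes that were lower by at least 1 log2 unit (points coloured by KO array and shaped by batch). KO replicate 2 keeps the most signal in 5 of the 7 genes; Lrrc18 has the widest spread, from 7.55% to 35.6%.

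Further falls outside the lists were below 1 log2 unit. Lrrc66 changed by −0.65 ± 0.10, Lrrc36 by −0.64 ± 0.08, Lrrc51 by −0.49 ± 0.06, Lrrc28 by −0.42 ± 0.07 and Lrrc10b by −0.37 ± 0.11 (SE). The limma adjusted p was 1.50e-04 for Lrrc66, 1.91e-05 for Lrrc36, 3.01e-05 for Lrrc51 and 2.34e-04 for Lrrc28, and in these 4 no KO array reached the WT range. Lrrc36, for instance, was at 10.18, 10.54, 10.16, 10.44 and 10.33 in WT and at 9.77, 9.60, 9.71, 9.72 and 9.64 in KO. The groups overlapped for Lrrc10b (limma adjusted p = 0.0175), with KO arrays at 6.92 to 7.49 and WT arrays at 7.38 to 7.88. The KO mean of Lrrc66 lay at percentile 21.8 of all features, and the share of background in it was not tested.

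The 8 rises outside the lists were between 0.16 and 0.55, beside 0.55 to 0.69 for the 3 axonemal rises. Lrrc2, found mainly in heart and skeletal muscle, was at 6.40, 6.34, 6.40, 6.38 and 6.17 in WT and at 6.77, 6.71, 6.99, 6.83 and 7.16 in KO (change 0.55 ± 0.09 SE, limma adjusted p = 1.78e-04). Lrrc34 was at 12.19, 12.23, 12.20, 12.27 and 12.29 in WT and at 12.71, 12.73, 12.78, 12.87 and 12.73 in KO (change 0.53 ± 0.05 SE, limma adjusted p = 3.44e-06). Its span overlaps that of Lrriq4, another leucine-rich repeat gene that the rule does not take, whose feature rose by 1.05 ± 0.11 (SE; limma adjusted p = 5.16e-06). Lrrc31, on the other side of Lrriq4, changed by −0.10 and was not called (limma adjusted p = 0.240).

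Lrrc47 rose by 0.42 ± 0.08, Lrrc42 by 0.39 ± 0.08 and Lrrc4, a synaptic adhesion protein, by 0.29 ± 0.07 (SE), all without overlap of the groups, at limma adjusted p = 6.04e-04, 0.0016 and 0.00564. The span of Lrrc4 overlaps that of Snd1, whose feature rose by 0.40 ± 0.07 (SE; limma adjusted p = 4.82e-04). That of Lrrc47 overlaps Smim1, which changed by −0.09 and was not called (limma adjusted p = 0.369). Lrrc4 lost its call with centring on the housekeeping genes including B2m. Within batches 2 and 4, Lrrc47 changed by 0.30 and 0.35, Lrrc42 by 0.32 and 0.62 and Lrrc4 by 0.19 and 0.53. The remaining 6 calls were smaller, namely falls of Lrrc32, which presents latent TGF-beta on the cell surface, Lrrc24 and Lrrc75a and rises of Lrrc41, Lrrc27 and Lrrc71, with changes between −0.29 and 0.24. Of these, 4 did not keep their call without single arrays. Lrrc27 lost it without WT replicate 1 or 3 or KO replicate 4 or 5 (limma adjusted p = 0.0654 to 0.0759) and Lrrc32 without WT replicate 1, 2 or 5 or KO replicate 3 (0.0536 to 0.0730). Lrrc41 lost it without any array other than WT replicate 4 or KO replicate 2 (0.0591 to 0.0972), and Lrrc71 without any array other than KO replicate 2 or 3 (0.0646 to 0.122). With batch as a fixed block Lrrc75a (limma adjusted p = 0.0594), Lrrc41 (0.0561) and Lrrc27 (0.142) were not called. Changes of the 36 genes that were not called ran from −0.21 to 0.21, and no limit of their 95% intervals was below −0.43 or above 0.38. Lrrc58, one of these and singled out after its values were seen, was higher in every KO array than in any WT array (limma adjusted p = 0.0704).

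CREM binds the cAMP response element, TGACGTCA, and its 5-base core TGACG. Both were searched on both strands in the 250 bases before the annotated starts (RefSeq, GRCm38.p6), where 52 of the 65 genes had an entry. Any full element also contains the core. The full element was found in 1 of the 52 genes (1.92%), Lrrc8a, against 1.77% of all 27025 genes with an entry. The core was found in 11 of the 52 (21.2%), against 19.8% of all genes. It was found in 4 of 11 called lower (36.4%), in 0 of 11 called higher and in 7 of 30 not called (23.3%). A match is a run of letters and not a measured binding site, and these counts are a description only.

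The windows are shown 5′ to 3′ on the strand of the gene, for Lrrc8a and for the 4 down-regulated genes with a match, with the matched letters in capitals.
Lrrc8a, chr2:30237641-30237688, plus strand: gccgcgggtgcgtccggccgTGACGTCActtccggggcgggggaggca
Lrrc8b, chr5:105415750-105415774, plus strand: ttggccggccgcgcgcgccgCGTCA
Lrrc8c, chr5:105519242-105519286, plus strand: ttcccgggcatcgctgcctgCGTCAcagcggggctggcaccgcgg
Lrrc55, chr2:85198853-85198897, minus strand: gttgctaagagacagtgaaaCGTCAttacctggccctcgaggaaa
Lrrc57, chr2:120609546-120609590, minus strand: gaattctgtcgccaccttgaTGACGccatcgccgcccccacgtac
The gene with the full element, Lrrc8a, was not called, and the core began 5 bases before the start of Lrrc8b, 127 before that of Lrrc55, 209 before that of Lrrc8c and 62 or 212 before annotated starts of Lrrc57.

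Of the 7 genes lower by at least 1, 5 had an entry, and 3 of these (60%) held the core. Lrrc69 and Lrrc18 had no entry and were not searched. The windows of Lrrc52 and Lrrc74a, which fell 7.83-fold and 8.37-fold, did not hold these letters. The 100 bases before the annotated start of Lrrc52 are printed for comparison with the windows above.
Lrrc52, chr1:167466781-167466880, minus strand: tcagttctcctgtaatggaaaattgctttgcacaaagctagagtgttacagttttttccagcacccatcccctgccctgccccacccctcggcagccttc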

How the data were processed

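Arrays had been normalised by the authors, using RMA (XPS package) over core transcripts and control probes with a quantile step. The deposited values are log2 levels, 1 column for each mouse. The version of the package and the build of the probe annotation are not given in the sources used here. Of 35557 rows, 25689 held values and all were fitted. Features were named through the platform annotation, with symbols updated through RefSeq (GRCm38.p6). Overlaps, neighbours and promoter windows were taken from RefSeq tables of that assembly. A feature averages probes along a transcript, so isoforms are not resolved, and it may take signal from a near-identical paralog.

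Differences between KO and WT were tested two-sided with lmFit and eBayes of limma 3.58.1 (R 4.3.3), without covariates. Benjamini-Hochberg adjustment covered all 25689 features, and an adjusted p under 0.05 was called. The fit was tested on simulated data with independent noise, no batches and few changed features. These settings differ from the real data, so the test checks the code and not the calls. Array medians were 7.11 to 7.15. Precision is limited by the number of arrays; the SE over genes had a median of 0.0755. Named were all axonemal and channel-linked genes, other genes called with a change of at least 1 in size, and the next 5 called falls and 5 called rises. Of the partner lists, Kcnu1, Kcnma1 and called genes with a change of at least 1 were to be named. The other partner genes given by name were chosen with their values known. The genes, lists and tests were chosen with earlier results of these data known, so no count is independent support.

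Replicates were numbered in order of deposition and pair nothing. Alternatives were another quantile normalisation, centring on array medians or 9 housekeeping genes (with or without B2m), batch as a fixed or random block, batch 2 or 4 alone, eBayes with a trend and robust variances, array weights, a filter on the 25% of features with the lowest mean, averaging the features of each gene, a minimum change of 1, the current symbols, and leaving out each array or KO replicates 2 and 3. Within batch 2 the KO and within batch 4 the WT is 1 array, whose spread is taken from the other group.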

Additional observations from a re-analysis of the deposited data

Results flagged for a closer look

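Among the 58 groups of 5 arrays behind the 29 genes named, 4 held an array far from the others by Dixon's test, and chance alone gives about 1 in 20. KO replicate 2 was the highest KO array for Lrrc69, at 5.74 with the nearest at 5.06. KO replicate 4 was the highest for Lrrc38, at 5.86 with the nearest at 5.75, and for Lrrc8d, at 8.04 with the nearest at 7.92. WT replicate 5 was the lowest WT array for Lrrc2, at 6.17 with the nearest at 6.34.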

How the results depend on the processing

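Of the 17 falls 9, and of the 12 rises 5, kept their call in all 23 other fits, and no gene was called in the opposite direction in any of them. Lrrc52 changed by −3.07 to −2.83 over these fits. Of the 643 single values behind the other 28 genes named, 610 kept their side of the threshold, 24 lost the call (14 of them for Lrrc8d) and 9 gained it. No called value turned its sign; of the 610, 11 values that were not called did, 9 for Lrrc56 and 2 for Lrrc8a. The genes called higher numbered 7 with centring on the housekeeping genes including B2m, 5 in batch 2 alone, 7 in batch 4 alone and 0 with a minimum change of 1, where 7 were called lower. Fewer arrays and the size limit are part of those settings; the cause was not tested for the centring. Leaving out each array in turn gave 16 to 18 genes lower, 8 to 16 higher, 3 to 5 axonemal and 5 to 6 channel-linked genes called, and a change of −3.02 to −2.94 for Lrrc52. The 5 axonemal calls came without KO replicate 2. No paired analysis was possible because the replicate numbers only follow the order of deposition. With 5 arrays in each genotype, changes near the 95% limits given above for the genes not called could have been missed.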
